A study of Mus musculus with 12 samples.

Results

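Bone marrow derived macrophages (BMDMs) of C57BL/6 mice that had been held in NB9464 tumor-conditioned medium (TCM) lost much of their interferon-response and monocyte-chemokine RNA when the Syk inhibitor R788 was present. The comparison set NB9464 TCM + R788 (libraries SJ9 and SJ10) against NB9464 TCM alone (SJ3 and SJ4), 4 of the 12 libraries of the series, and covered the 16281 of 54232 genes that had at least 10 counts in at least 2 of all 12 libraries. BMDMs were grown for 5 days before they received TCM, R788, both or neither for 24 h, with R788 at 500 nM. NB9464 is a mouse neuroblastoma line with amplified MYCN, and by the study's methods its TCM was collected over 48 h in DMEM without serum. By the same methods the cells came from marrow expanded with M-CSF, so that a culture was a mixed outgrowth and not a clone. Neither the vehicle of R788 nor the source of each library in separate mice or cultures was given, so p-values measure the spread between libraries, which may be technical. The other groups used below were cells without TCM (NS, SJ1 and SJ2) and R788 without TCM (SJ7 and SJ8). Further groups had the medium labelled NBT3L TCM, alone (SJ5 and SJ6) or with R788 (SJ11 and SJ12). The part of MYCN in differences between NB9464 TCM and NBT3L TCM was not tested.

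Syk is a cytoplasmic tyrosine kinase that docks on phosphorylated ITAM motifs of adaptors such as DAP12 (Tyrobp) and the Fc receptor γ chain (Fcer1g), and through them serves Fc receptors, TREM receptors and C-type lectins. Its substrates pass the signal to phospholipase C, Vav proteins, PI3 kinase and CARD9, and from there to NF-κB and MAP kinases. R788 (fostamatinib) is a prodrug whose active form inhibits Syk and, less selectively, other kinases. Type I interferons act through JAK kinases and a complex that holds STAT2 and IRF9 and binds the interferon-stimulated response element (ISRE) of antiviral genes, and macrophages hold a basal level of this program in culture. CCL2, CCL7 and CCL12 are ligands of CCR2 and draw monocytes into tissue.

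The 4 libraries held between 47020651 and 56364160 counts and between 17275 and 18305 genes with a count. The libraries with R788 (17682 and 17275 genes) lay below both without it (18273 and 18305). Library SJ8 of the R788 group without TCM, with 16149 genes, stood apart from all others. It entered the comparison in NB9464 TCM through the gene filter, the scaling and the shared estimate of spread, while values of R788 without TCM rest on it and SJ7. Of 10 macrophage markers all were detected, with a summed level of 75135 to 76549 TPM (reads per length, scaled to an equal total in each library) in NB9464 TCM and 86001 to 86091 TPM with R788, with Adgre1 (F4/80) going from 222578 and 220715 to 300719 and 301717 normalized counts. Of these 10 markers, 6 were called higher, 2 lower (Fcgr1 by 0.91 and Itgam by 0.37 on the log2 scale) and 2 neither way. Over all genes tested, 5.79% were called higher and 8.7% lower. Of 16 neuroblastoma markers, 7 had 0 counts, in all 4 libraries, among them Alk, Chga, Dbh, Phox2a, Ret and Th. The summed level of that list was 2.55 to 3.28 TPM without and 3.18 to 3.95 TPM with R788. Neutrophil markers summed to 700.1 to 749.6 TPM without and 586 to 622 TPM with R788. Stromal markers summed to 15.6 to 18.1 TPM without and 21.5 to 23.2 TPM with R788, and the part of such cells in the results was not tested. No neuroblastoma, neutrophil, dendritic cell, lymphocyte, mast cell or erythroid marker was called, though many had too few counts to be tested. Tested were 9 of 16 neuroblastoma, 9 of 10 neutrophil and 5 of 8 dendritic cell markers. For lymphocytes 3 of 10 markers were tested, for mast cells 3 of 7 and for erythroid cells 1 of 6. Of the 9 stromal markers tested, Col1a1 (0.54) and Col1a2 (0.50) were called higher, beside the 5.79% of all genes. Col1a2 was not called by edgeR or when any of the 4 libraries was left out, and Col1a1 not without SJ4 or SJ10. In bulk RNA, fewer cells of a type and less RNA per cell cannot be told apart.

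With R788, 2359 genes were called (DESeq2, adjusted p under 0.05), 14.5% of those tested. There were 942 called higher (5.79%) and 1417 called lower (8.7%). The larger changes were mostly falls. Of the called genes, 268 fell and 75 rose at least 2-fold, 94 fell and 17 rose at least 4-fold, and 38 fell and 3 rose at least 8-fold. The median size of a called change was 0.48 on the log2 scale among falls and 0.38 among rises. The median log2 fold change of all genes tested was -0.003, and TMM scaling shifted it by -0.003. Of the genes tested, 88 had no count in any of the 4 libraries, and 3472 had no adjusted p because DESeq2 filtered them for low counts. With 2 libraries a group an exact two-sided permutation test cannot give a p under 0.333, so the calls rest on the variance model fitted over all genes and libraries. Leaving out SJ3, SJ9 or SJ10 lowered the count from 2359 to 1419, 1484 or 1571.

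**Figure D1:**
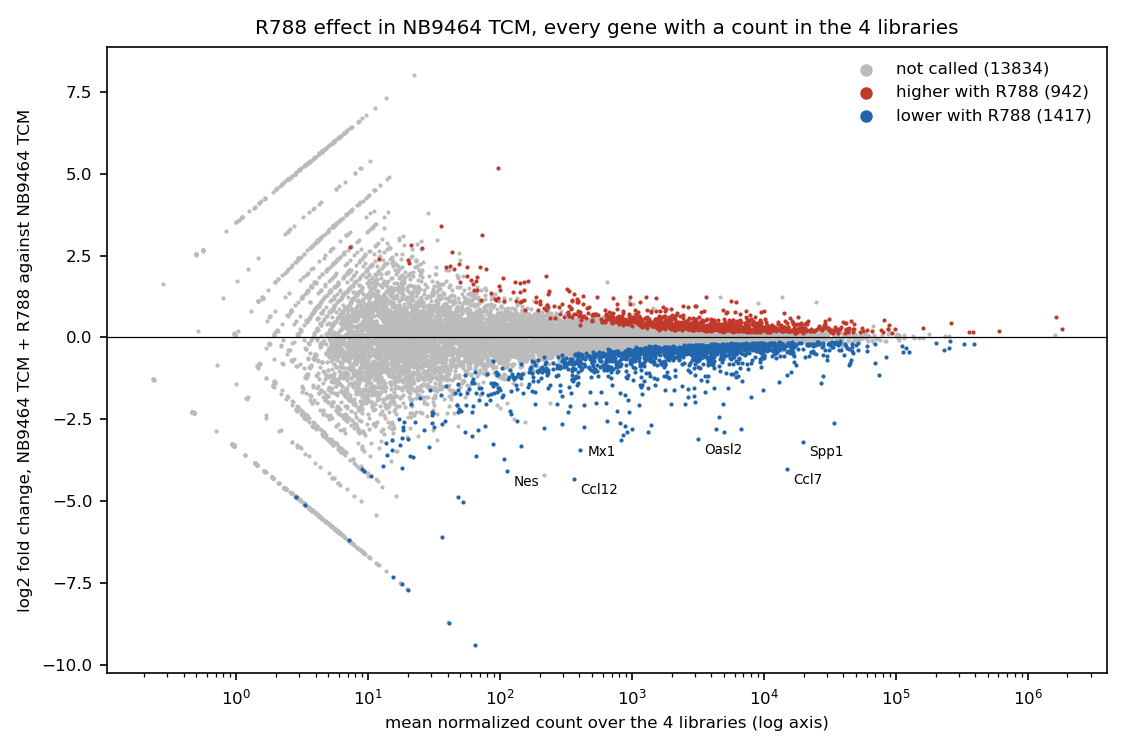
Each point is a gene with a count in the 4 libraries: the x axis is the mean normalized count (log axis) and the y axis the log2 fold change of NB9464 TCM + R788 against NB9464 TCM. Red marks the 942 genes called higher, blue the 1417 called lower and grey those not called. The labelled points are leading falls, and 38 genes called lower against 3 called higher lie past an 8-fold change.

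Of the genes that fell at least 4-fold, 18 of 57 with a promoter window carry the letters of an ISRE close to their start, and windows of 5 of them are shown for that reason. Windows are RefSeq sequences (GRCm38.p6) from 250 bases before to 50 bases after a gene's annotated start, printed 5′ to 3′ on the gene's strand. Capitals mark each match to GAAANNGAAA on either strand.
Ifit3b (chr19:34607707-34608006, plus strand): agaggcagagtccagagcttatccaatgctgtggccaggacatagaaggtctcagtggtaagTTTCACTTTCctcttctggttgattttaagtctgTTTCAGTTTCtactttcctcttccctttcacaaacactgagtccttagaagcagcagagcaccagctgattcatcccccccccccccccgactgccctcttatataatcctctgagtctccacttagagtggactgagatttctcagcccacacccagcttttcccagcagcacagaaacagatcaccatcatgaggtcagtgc
Phf11a (chr14:59297473-59297772, minus strand): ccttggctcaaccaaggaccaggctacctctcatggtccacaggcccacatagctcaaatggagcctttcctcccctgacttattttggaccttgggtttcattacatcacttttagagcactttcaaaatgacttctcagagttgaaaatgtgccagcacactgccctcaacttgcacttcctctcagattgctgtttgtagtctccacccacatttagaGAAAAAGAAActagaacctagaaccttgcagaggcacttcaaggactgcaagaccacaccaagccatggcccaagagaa
Cxcl10 (chr5:92348840-92349139, minus strand): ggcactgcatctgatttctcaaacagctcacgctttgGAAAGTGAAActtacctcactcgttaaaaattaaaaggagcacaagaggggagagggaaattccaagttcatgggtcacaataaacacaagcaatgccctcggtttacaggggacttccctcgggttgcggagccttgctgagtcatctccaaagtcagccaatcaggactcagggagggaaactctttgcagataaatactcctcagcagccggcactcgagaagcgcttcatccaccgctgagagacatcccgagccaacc
Ifi213 (chr1:173599223-173599522, minus strand): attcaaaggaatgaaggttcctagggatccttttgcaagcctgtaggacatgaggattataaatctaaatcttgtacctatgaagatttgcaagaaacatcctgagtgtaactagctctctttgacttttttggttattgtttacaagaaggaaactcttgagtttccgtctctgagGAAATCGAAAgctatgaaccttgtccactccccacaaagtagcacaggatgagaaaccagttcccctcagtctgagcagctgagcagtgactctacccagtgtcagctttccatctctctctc
Ifi206 (chr1:173491269-173491568, minus strand): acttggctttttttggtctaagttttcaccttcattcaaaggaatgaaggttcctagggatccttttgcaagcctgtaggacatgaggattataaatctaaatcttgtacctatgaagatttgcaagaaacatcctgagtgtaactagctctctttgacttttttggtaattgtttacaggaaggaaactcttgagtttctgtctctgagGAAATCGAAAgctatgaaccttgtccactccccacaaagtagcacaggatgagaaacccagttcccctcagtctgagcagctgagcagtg
The matches began 188 and 154 bases before the start in Ifit3b, 29 in Phf11a, 213 in Cxcl10, 73 in Ifi213 and 40 in Ifi206. The windows of Ifi213 and Ifi206, lined up on their match, were identical at 236 of 267 bases (88.4%).

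ISRE letters were in 1079 of all 27025 promoters of the table (3.99%) and in 345 of 9419 genes that were not called (3.66%). They were in 79 of the 1085 genes called lower that had a window (7.28%), in 18 of the 57 called lower at least 4-fold (31.6%) and in 22 of the 759 called higher (2.9%). Among the interferon-response genes 25 of 49 with a window held them (51.0%), and among the Ifi200 family 9 of 11 (81.8%). A match is a run of letters and says nothing of what binds there.

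Another short motif, the AP-1 letters TGANTCA, which reads the same on both strands, is printed for 2 matrix proteases, a protease inhibitor and a cytokine antagonist that fell, again in capitals.
Mmp12 (chr9:7347124-7347423, plus strand): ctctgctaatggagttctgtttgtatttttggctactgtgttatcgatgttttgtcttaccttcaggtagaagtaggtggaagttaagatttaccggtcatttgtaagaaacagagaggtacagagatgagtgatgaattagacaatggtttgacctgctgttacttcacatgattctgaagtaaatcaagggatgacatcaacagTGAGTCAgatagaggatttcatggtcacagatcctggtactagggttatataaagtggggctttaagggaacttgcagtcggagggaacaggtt
Mmp13 (chr9:7272264-7272563, plus strand): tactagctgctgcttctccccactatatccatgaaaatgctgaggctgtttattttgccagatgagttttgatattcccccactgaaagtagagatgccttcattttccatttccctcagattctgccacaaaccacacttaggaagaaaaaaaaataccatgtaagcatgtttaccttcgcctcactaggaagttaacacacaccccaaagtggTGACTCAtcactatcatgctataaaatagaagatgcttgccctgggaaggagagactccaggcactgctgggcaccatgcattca
Serpinb2 (chr1:107511173-107511472, plus strand): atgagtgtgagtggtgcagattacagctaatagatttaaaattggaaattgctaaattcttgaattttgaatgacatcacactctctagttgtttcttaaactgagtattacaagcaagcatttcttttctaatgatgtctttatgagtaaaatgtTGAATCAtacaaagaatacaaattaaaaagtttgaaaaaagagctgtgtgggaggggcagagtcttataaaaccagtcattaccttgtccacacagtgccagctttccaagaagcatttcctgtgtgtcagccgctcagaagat
Il1rn (chr2:24336610-24336909, plus strand): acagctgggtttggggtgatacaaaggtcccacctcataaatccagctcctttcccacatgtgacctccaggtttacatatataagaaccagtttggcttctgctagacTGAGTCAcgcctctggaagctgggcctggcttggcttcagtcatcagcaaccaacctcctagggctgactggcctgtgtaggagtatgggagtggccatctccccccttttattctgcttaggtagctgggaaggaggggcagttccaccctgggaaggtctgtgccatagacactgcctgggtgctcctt
The match began 44 bases before the start in Mmp12, 35 in Mmp13, 94 in Serpinb2 and 141 in Il1rn, where Mmp12, Serpinb2 and Il1rn have more than 1 window and the one with a match is shown. AP-1 letters were in 2425 of 27025 promoters (8.97%), in 13 of 57 genes called lower at least 4-fold (22.8%), in 105 of 1085 called lower (9.68%) and in 50 of 759 called higher (6.59%). Among all genes tested the share was 6.78%, and among those not called 6.47%. GAS letters (TTCNNNGAA, both strands) were in 9.55% of all promoters, in 8.20% of the genes tested, in 8.39% of the genes called lower, in 9.62% of those called higher and in 8.07% of those not called. Letters of an NF-κB site (GGGNNTTNCC, both strands) were in 5.48% of all promoters, 6.54% of the genes tested, 7.74% of those called lower, 7.25% of those called higher and 6.35% of those not called.

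**Figure D2:**
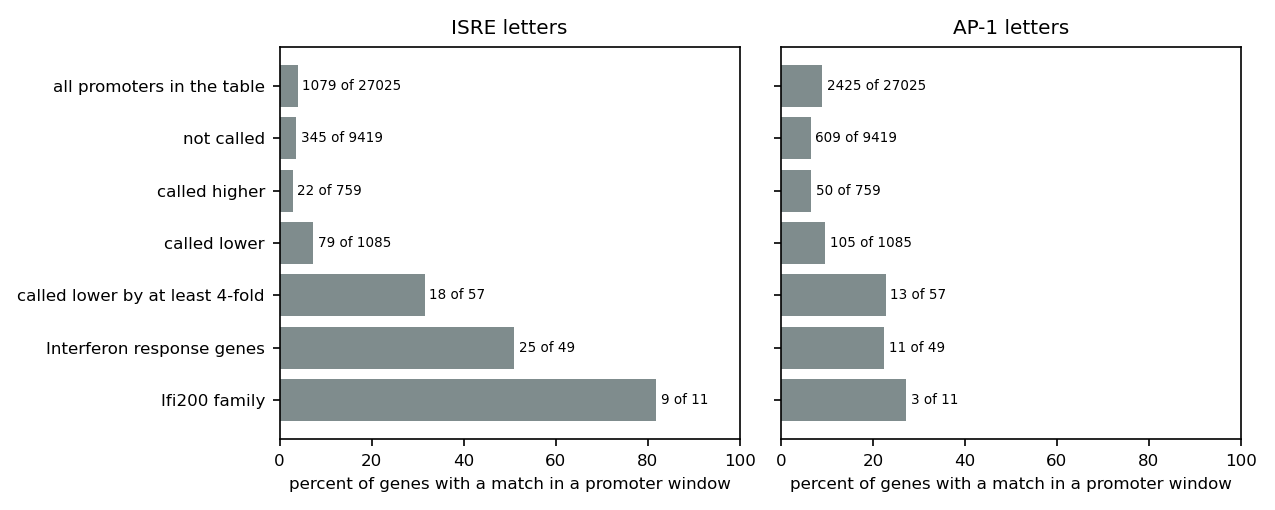
Bars give the percent of genes whose promoter window holds ISRE letters (left) or AP-1 letters (right), with the number of genes beside each bar, for all promoters, for genes by their call in NB9464 TCM and for 2 gene lists. The share with ISRE letters is 3.99% over all promoters, 31.6% in genes called lower at least 4-fold and 81.8% in the Ifi200 family.

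Nearly all interferon-response genes were lower with R788. Of the 63 tested, 60 were called lower (8.7% of all genes were) and 44 of these fell at least 2-fold, with a median log2 fold change of -1.49 over the list. The falls reached from -0.19 to -3.71. Ifi27 was called higher, and Irf1 and Ifit1bl1 were not called. Ifit3b, of the IFIT family that binds foreign RNA, had 171 and 226 normalized counts in NB9464 TCM and 16.9 and 13.3 with R788. Mx1, a dynamin-like GTPase that blocks influenza viruses, had 847 and 620 against 75.6 and 60.0. Cmpk2, a mitochondrial nucleotide kinase encoded next to Rsad2, had 1454 and 1507 against 157 and 184. In each of these the 4 libraries fell into separate ranges by treatment. The rule that named the 10 largest falls required this, so it is no further evidence. The log2 fold change was -3.71 ± 0.40 for Ifit3b (SE, DESeq2 adjusted p = 7.9e-19), -3.43 ± 0.22 for Mx1 (adjusted p = 3.5e-52) and -3.12 ± 0.13 for Cmpk2 (adjusted p = 9.0e-119).

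The 2'-5' oligoadenylate synthetase-like genes Oasl2 and Oasl1 lie side by side at chr5:114896936-114912234 and chr5:114923240-114937915 (GENCODE M21, GRCm38). Oasl2 had 5715 and 5532 normalized counts without and 640 and 669 with R788. Oasl1, which shares its locus with the opposite-strand gene Gm13822, had 1468 and 1559 against 205 and 179. The log2 fold change was -3.10 ± 0.084 for Oasl2 (adjusted p = 3.5e-293) and -2.98 ± 0.13 for Oasl1 (adjusted p = 2.3e-116). Slfn1, a Schlafen gene tied to growth arrest of lymphocytes and myeloid cells, had 147 and 174 counts against 15.9 and 17.8 (log2 fold change -3.26). Phf11a, a PHD-finger gene, had 292 and 234 against 27.9 and 24.4 (-3.33). The ranges of the groups did not overlap for either gene, which the rule for the largest falls required of Phf11a. Without TCM or R788 (NS), levels were higher, with 2577 and 2960 counts for Mx1 and 18700 and 18604 for Oasl2. Ifi27, whose product sits in mitochondria, went the other way, from 5029 and 5066 to 8586 and 7864 (0.70 ± 0.083, adjusted p = 1.1e-15).

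The Ifi200 genes form a cluster on chromosome 1 and encode PYHIN proteins that sense DNA or act on transcription. Of 12 tested, 8 were called lower and none higher (8.7% and 5.79% of all genes were), with a median log2 fold change of -1.82. Ifi213 had 84.2 and 79.9 normalized counts in NB9464 TCM and 0 counts in both libraries with R788, and was at least 26.0-fold lower against a floor of 3 counts per library. Ifi206 had 78.4 and 107 against 0 and 6.66. Ifi209 had 1596 and 1568 against 355 and 293 (log2 fold change -2.28 ± 0.13). Ifi211 had 1505 and 1425 against 397 and 380 (-1.91 ± 0.13). Neither gene's libraries overlapped between groups, but an exact two-sided permutation test of 2 against 2 libraries cannot give a p under 0.333. The share of all genes without such overlap is not given here. How reads that match several members were counted was not stated, so values of single members are uncertain.

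Of the CC chemokines, 7 of 11 tested were called lower and none higher (8.7% and 5.79% of all genes were), with a median of -0.98. Ccl2 (chr11:82035571-82037453), Ccl7 (chr11:82045712-82047525) and Ccl12 (chr11:82101845-82103400) lie in 1 cluster. Ccl7 had 27308 and 28740 normalized counts in NB9464 TCM and 1720 and 1712 with R788, 16.3-fold lower (log2 fold change -4.03 ± 0.060). The DESeq2 p of Ccl7 was too small to be represented. Ccl12 had 708 and 682 against 26.9 and 42.2, 20.3-fold lower (adjusted p = 7.9e-50). Ccl2 had 57537 and 58327 against 9472 and 9529, 6.1-fold lower (adjusted p = 2.1e-195). Per length, Ccl2 went from 2719 to 424 TPM and Ccl7 from 1868 to 109 TPM, so that on the per-length scale the level of Ccl2 was above that of Ccl7 in both groups. Ccl4, which attracts monocytes and T cells, had 7968 and 8024 against 2773 and 2762 (2.89-fold lower). With R788 the count of Ccl4 stayed above the 1923 and 1980 of NS, while that of Ccl7 went below the 11931 and 12492 of NS. Ccl5, a chemokine that interferon and NF-κB induce, had 12496 and 12093 against 8342 and 8136 and was not called by DESeq2 (-0.58 ± 0.22, adjusted p = 0.053), though edgeR called it (adjusted p = 0.0053).

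Some chemokine receptors of monocytes were also lower. Ccr1 had 3559 and 3520 normalized counts against 1159 and 1347 (log2 fold change -1.50 ± 0.14, adjusted p = 5.5e-26). Ccr2, the receptor of the chemokines above, had 641 and 627 against 386 and 370 (-0.75 ± 0.12, adjusted p = 9.7e-09), and C5ar1, the complement C5a receptor, was lower by 0.57. In all, 4 of 16 receptors were called lower and 2 higher, beside 8.7% and 5.79% of all genes. The higher pair was Fpr2, a formyl peptide receptor, with 0.25, and Ccrl2, a chemerin-binding receptor without signaling, with 0.68. The CXC chemokines split. Cxcl10, a ligand of CXCR3 that overlaps Art3 on the other strand, had 291 and 306 counts against 103 and 42.2 (-2.02 ± 0.30, adjusted p = 1.1e-09). Cxcl2, which attracts neutrophils, was lower by 0.38, and Cxcl12 had 13.4 and 20.4 counts against 91.5 and 70.0 (2.25 ± 0.56, adjusted p = 7.2e-04).

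**Figure D3:**
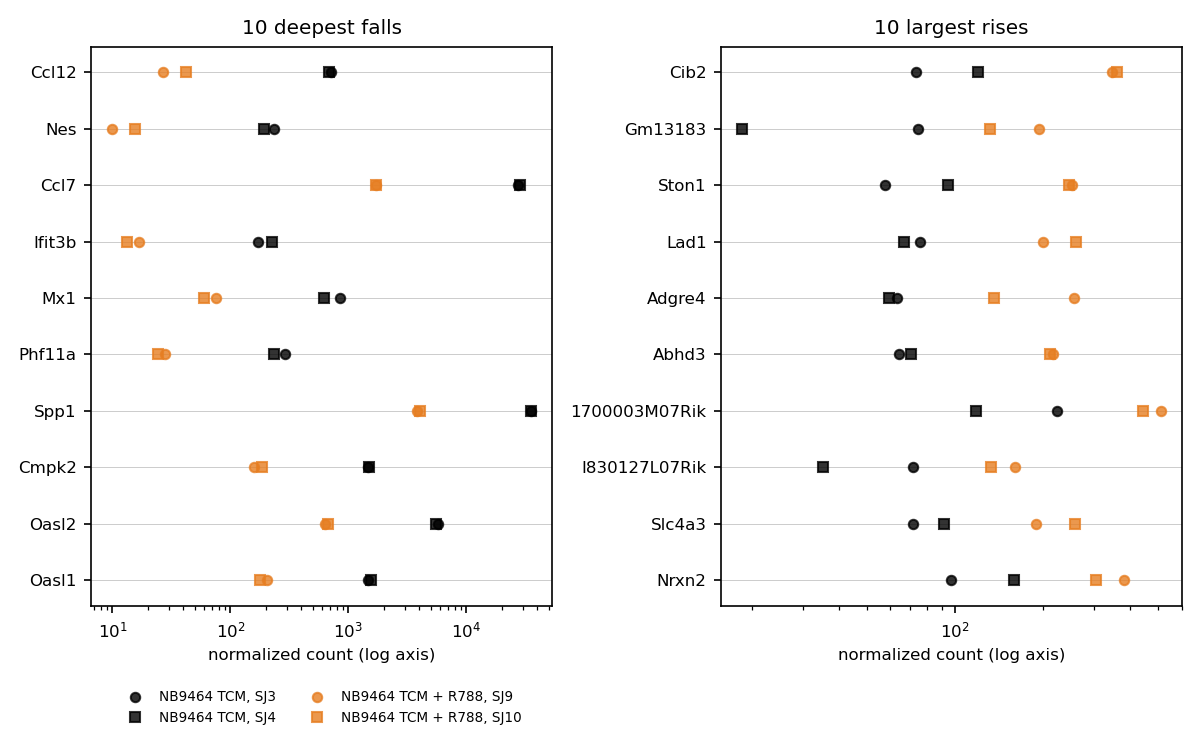
Normalized counts (log axis) of the 10 deepest falls (left) and the 10 largest rises (right) by the naming rule, with 1 point per library, black for NB9464 TCM and orange for NB9464 TCM + R788. Black and orange points do not overlap, as the rule required. Ccl7 sits at 27308 and 28740 without R788 and at 1720 and 1712 with it.

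Among cytokines and growth factors, 12 of 32 were called lower and 2 higher, beside 8.7% and 5.79% of all genes. Spp1 (osteopontin, chr5:104435118-104441050), a secreted matrix phosphoprotein of tumor macrophages, had 35422 and 35347 normalized counts in NB9464 TCM and 3791 and 4019 with R788, 9.06-fold lower (-3.18 ± 0.052). Its level in NS was higher still, 135345 and 137111. Il1rn, the antagonist of the IL-1 receptor, had 3968 and 4264 against 1129 and 1194 (-1.83 ± 0.12, adjusted p = 5.1e-54). Csf3 (G-CSF) had 4558 and 4965 against 1152 and 1270 (-1.98 ± 0.11). Edn1 (endothelin-1), which overlaps Gm47118 on the other strand, had 564 and 520 against 100.5 and 121 (-2.29 ± 0.29). Csf3 and Edn1 were at or near 0 in NS, and with R788 stayed far above that. Higher were Il12a, the p35 subunit of IL-12 and IL-35, from 387 and 388 to 594 and 663 (0.70 ± 0.20, adjusted p = 0.0055), and its partner subunit Ebi3, from 4996 and 5027 to 6190 and 6640 (0.36 ± 0.10, adjusted p = 0.0026). The call of Il12a was lost without SJ3, SJ4 or SJ10, and that of Ebi3 without SJ10.

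The study's immunosuppressive panel of 18 genes had 9 members called lower and none higher, with a median of -0.44. Over all genes tested, 8.7% were called lower and 5.79% higher. The panel is a list displayed in the study for these samples and so no independent evidence of direction. Arg1 (arginase 1) had 517 and 582 normalized counts against 133 and 124, a log2 fold change of -2.09 ± 0.23 (adjusted p = 3.1e-18). With R788 it was at the level of NS (125 and 148). The scavenger receptor Msr1 had 58128 and 55642 against 33574 and 32583 (-0.78 ± 0.044). Il1b, which overlaps Il1bos on the other strand, had 965 and 1123 against 569 and 580. The panel's fall in Myc was 0.54 on the log2 scale and in Mmp9 0.33. Stat3 was called lower by 0.18, but edgeR did not call it and leaving out any of the 4 libraries lost the call. Il10 (0.35, adjusted p = 0.18), Vegfa (0.16) and Tgfb1 (0.06) were not called, nor were Igf1r, Cxcl3, Cd14, Ccl5 and Plod3. Ido1, at 7.65 and 22.3 normalized counts against 11.9 and 3.33, had no adjusted p because DESeq2 filtered it for low counts.

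Of 16 genes of alternative activation, 5 were called lower and none higher, beside 8.7% and 5.79% of all genes. Mrc1 (the mannose receptor CD206) had 2812 and 2517 normalized counts against 888 and 872 (-1.60 ± 0.085, adjusted p = 8.8e-77). It had been at 28261 and 26069 in NS. Stab1 (stabilin-1), which overlaps Nt5dc2 on the other strand, had 58212 and 53914 against 33809 and 35838 (-0.69 ± 0.054, adjusted p = 3.9e-35). Cd163, the hemoglobin scavenger receptor, had 945 and 843 against 617 and 658 (-0.49 ± 0.15, adjusted p = 0.011). Without SJ3, SJ9 or SJ10, Cd163 was no longer called. Among scavenger and efferocytosis receptors as a whole, 8 fell and 8 rose of 23. Risers were Fcrls, from 809 and 1026 to 2163 and 2092 (1.21 ± 0.13), the apoptotic-cell receptors Axl (0.68 ± 0.23, adjusted p = 0.021) and Mertk (0.45 ± 0.089, adjusted p = 9.7e-06), and Cd5l (0.67 ± 0.16). Axl was not called by edgeR, and leaving out SJ4, SJ9 or SJ10 also lost its call.

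Genes on a list of Syk-coupled receptors and ITAM adaptors moved in both directions, with 7 of 24 called lower and 4 higher, beside 8.7% and 5.79% of all genes. Whether each member, Treml2 among them, signals through Syk was not tested. Trem1, a DAP12-coupled amplifier of inflammation, had 1194 and 1313 normalized counts against 530 and 552 (-1.21 ± 0.17, adjusted p = 2.3e-11), and its neighbour Treml2 had 300 and 224 against 85.5 and 83.3 (-1.63 ± 0.26, adjusted p = 1.9e-08). Fcgr1, the high-affinity IgG receptor, had 12334 and 12531 against 6557 and 6670 (-0.91 ± 0.055, adjusted p = 4.4e-60). Clec4e (Mincle) was higher, from 79396 and 76138 to 99341 and 100796 (0.36 ± 0.059, adjusted p = 3.3e-08), and Tyrobp, the DAP12 adaptor, rose from 23924 and 25932 to 34430 and 31719 (0.41 ± 0.15, adjusted p = 0.037). The call of Tyrobp was lost when any of the 4 libraries was left out. The other adaptor Fcer1g had 57005 and 61121 against 75812 and 74641 and was not called (0.35, adjusted p = 0.072). Trem2, Clec7a (Dectin-1), Fcgr3 and Fcgr4 were not called.

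Syk itself (chr13:52583173-52648792) was slightly higher in RNA with its inhibitor, at 41094 and 43780 against 34238 and 33632 normalized counts (0.32 ± 0.051, adjusted p = 7.3e-09). R788 acts on the enzyme, so the RNA does not check inhibition. Of 27 partners, 7 were called higher and 3 lower, beside 5.79% and 8.7% of all genes. Blnk, a scaffold that Syk phosphorylates, rose from 2851 and 3159 to 4508 and 4366 (0.56 ± 0.10, adjusted p = 1.2e-06), and Pik3r5, a regulatory subunit of PI3 kinase γ, rose from 18824 and 17307 to 25500 and 25311 (0.49 ± 0.054, adjusted p = 3.6e-18). The Src-family kinase Fgr rose by 0.33. Vav3, a guanine nucleotide exchange factor, had 2926 and 2447 against 1747 and 1764 (-0.61 ± 0.11, adjusted p = 5.2e-07), and the adaptors Lat2 and Lcp2 fell by 0.36 and 0.19. Btk, Plcg2, Lyn and Card9 were not called, with log2 fold changes between -0.07 and 0.09. All changes in this list were under 2-fold, and Lcp2 was no longer called without SJ3, SJ4 or SJ10, nor Fgr without SJ3.

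Of 23 genes on a list of inhibitory receptors, phosphatases and adaptors, with the kinase gene Csk, 5 were called lower and 6 higher. Over all genes tested, 8.7% were called lower and 5.79% higher. Siglec1 (CD169), a sialic acid receptor that interferon induces and that lacks an inhibitory motif of its own, had 19756 and 17562 normalized counts against 7391 and 7263 (-1.35 ± 0.071, adjusted p = 3.0e-78). Lilrb4a had 23042 and 20603 against 10272 and 10601 (-1.06 ± 0.065, adjusted p = 3.3e-57). It lies among near-identical genes and overlaps others on both strands, so its value is uncertain. Cd300a rose from 2634 and 2454 to 3951 and 3877 (0.62 ± 0.084, adjusted p = 6.5e-12), and the phosphatase gene Ptpn6 (SHP-1) by 0.29.

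Of 30 genes of matrix proteases, their inhibitors and the plasminogen system, 12 were called lower and 3 higher, with a median of -0.44. Over all genes tested, 8.7% were called lower and 5.79% higher. Mmp12 (macrophage elastase, chr9:7344381-7369499) had 11952 and 11400 normalized counts against 1637 and 1748, 6.9-fold lower (-2.79 ± 0.085, adjusted p = 2.7e-230), and Mmp13 (collagenase 3), at chr9:7272514-7283331 in the same cluster, had 472 and 549 against 61.7 and 101 (-2.66 ± 0.22, adjusted p = 3.6e-31). Mmp12 overlaps Mmp1b on the other strand. Serpinb2, an inhibitor of plasminogen activators that overlaps Serpinb10 on the same strand, had 1505 and 1562 against 203 and 271 (-2.70). Its target Plau (urokinase) had 1745 and 1755 against 704 and 565 (-1.46 ± 0.11, adjusted p = 7.2e-40). Mmp2 (gelatinase A) rose from 622 and 644 to 1312 and 1261 (1.02 ± 0.13, adjusted p = 9.4e-13).

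Of 36 AP-1, EGR and MAP kinase feedback genes, 17 were called lower and 1 higher, beside 8.7% and 5.79% of all genes. Egr1, an immediate early gene, had 271 and 287 normalized counts against 87.5 and 87.7 (-1.67 ± 0.36, adjusted p = 4.9e-05). Fosl1, which overlaps Ccdc85b, had 560 and 559 against 193 and 218 (-1.45 ± 0.26, adjusted p = 5.7e-07). The feedback inhibitors Spry2 and Dusp5 fell by 1.19 and 0.94, and Dusp5 was no longer called without SJ4 or SJ10. Batf, an AP-1 factor that partners IRFs, rose from 2302 and 2645 to 4383 and 4089 (0.78 ± 0.11, adjusted p = 9.0e-12). The NF-κB list had the opposite balance, 12 of 29 higher and 3 lower. Risers were the receptor Icam1 from 6335 and 6575 to 9836 and 9275 (0.57 ± 0.072, adjusted p = 1.9e-13), Nfkb2, Nfkbie and Bcl2a1d, by 0.52, 0.58 and 0.68. The call of Bcl2a1d was lost when any of the 4 libraries was left out. The 3 that fell encode enzymes. Ptgs2 (cyclooxygenase 2) had 969 and 755 against 416 and 447 (adjusted p = 9.3e-06), Nos2 (inducible nitric oxide synthase) 1824 and 1771 against 1044 and 1153 (-0.71 ± 0.14), and Acod1, the itaconate synthase, 146862 and 143037 against 104946 and 107026 (-0.45 ± 0.045).

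Toll-like receptor and inflammasome genes had 4 called higher and 4 lower of 30, with 22 not called, beside 5.79% called higher and 8.7% called lower over all genes. Tlr2 rose from 10896 and 10330 to 17525 and 17902 normalized counts (0.74 ± 0.054, adjusted p = 6.7e-40), and the adaptor Ticam2, which shares transcripts with Tmed7, from 951 and 1064 to 1686 and 1865 (0.82). The endosomal receptor Tlr7 and the inflammasome sensor Nlrp3 fell by 0.52 and 0.43. Class I antigen presentation had 8 of 20 lower and 1 higher. The peptide transporter Tap1, which overlaps Psmb9, had 3771 and 3975 against 2300 and 2066 (-0.83 ± 0.10), and the class I transactivator Nlrc5 2207 and 2099 against 1090 and 1398 (-0.79 ± 0.12). Of 12 class II genes, H2-Ab1 was called (0.50 ± 0.14, adjusted p = 0.0027) and 11 were not. Costimulatory ligands changed both ways, with Cd86 lower (510 and 478 against 247 and 258, -0.97 ± 0.23) and the ICOS ligand Icosl higher (892 and 979 against 1835 and 1511, 0.84 ± 0.14). Tnfsf4 (OX40 ligand) fell by 2.04 ± 0.60 at 104 and 148 counts against 38.8 and 22.2. Without SJ4 or SJ10 the call of Tnfsf4 was lost, and without SJ3 or SJ9 that of H2-Ab1.

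DNA replication genes were lower in 31 of 40 and higher in none, with a median of -0.51, and mitosis genes in 20 of 35 and none, with a median of -0.32. Over all genes tested, 8.7% were called lower and 5.79% higher. In these lists, 2 replication genes and no mitosis gene fell at least 2-fold. Orc1, of the origin recognition complex, had 510 and 463 normalized counts against 204 and 233 (-1.15 ± 0.20, adjusted p = 1.6e-07), Pole, the catalytic subunit of polymerase ε, 1374 and 1272 against 705 and 694 (-0.92 ± 0.12), and Uhrf1, which maintains DNA methylation, 6003 and 5807 against 3199 and 3311 (-0.86 ± 0.062). Of the mitosis genes Kif23 had 1364 and 1170 against 731 and 818 (-0.71 ± 0.11) and Top2a 6215 and 5565 against 4263 and 3774 (-0.55 ± 0.088).

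Of 24 sterol genes 13 were called lower and none higher, with a median of -0.33, and 16 of 24 fatty acid and LXR genes fell while 2 rose. For these and the lists that follow, the shares over all genes tested were 8.7% lower and 5.79% higher. Insig1, a sterol-sensing ER protein, had 3650 and 3550 normalized counts against 2421 and 2410 (-0.58 ± 0.081, adjusted p = 5.6e-11). Fasn (fatty acid synthase) had 9230 and 8228 against 4779 and 4282 (-0.95 ± 0.089, adjusted p = 3.6e-24) and Fads2 884 and 938 against 480 and 482 (-0.92 ± 0.17). Apoe (0.35) and Nr1h3, the gene of LXRα (0.45), rose. Apoe was no longer called without SJ3 or SJ9, nor Nr1h3 without SJ4 or SJ9. Lists without a clear balance were lysosome genes (9 lower and 7 higher of 39), actin genes (6 and 7 of 41), integrins (7 and 9 of 28), HIF and glycolysis genes (7 and 4 of 33), NRF2 genes (7 and 3 of 25), ATF4 genes (5 and 6 of 31), ER chaperones (4 and 1 of 22), complement (2 and 3 of 21), cytokine receptors (6 and 7 of 30) and macrophage transcription factors (5 and 8 of 33), with medians between -0.05 and 0.11. Id3, an inhibitor of basic helix-loop-helix factors, led the last list and rose from 2041 and 2311 to 5083 and 5066 (1.22 ± 0.11, adjusted p = 1.5e-27). Fscn1, an actin bundler, rose from 257 and 232 to 510 and 535 (1.09). Of 17 glucocorticoid-responsive genes 6 rose and 2 fell, with a median of 0.30, and Fkbp5 rose from 3295 and 3554 to 4778 and 5166 (0.54 ± 0.091). Of 9 AHR targets, 2 were called higher, Ahrr by 0.66.

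**Figure D4:**
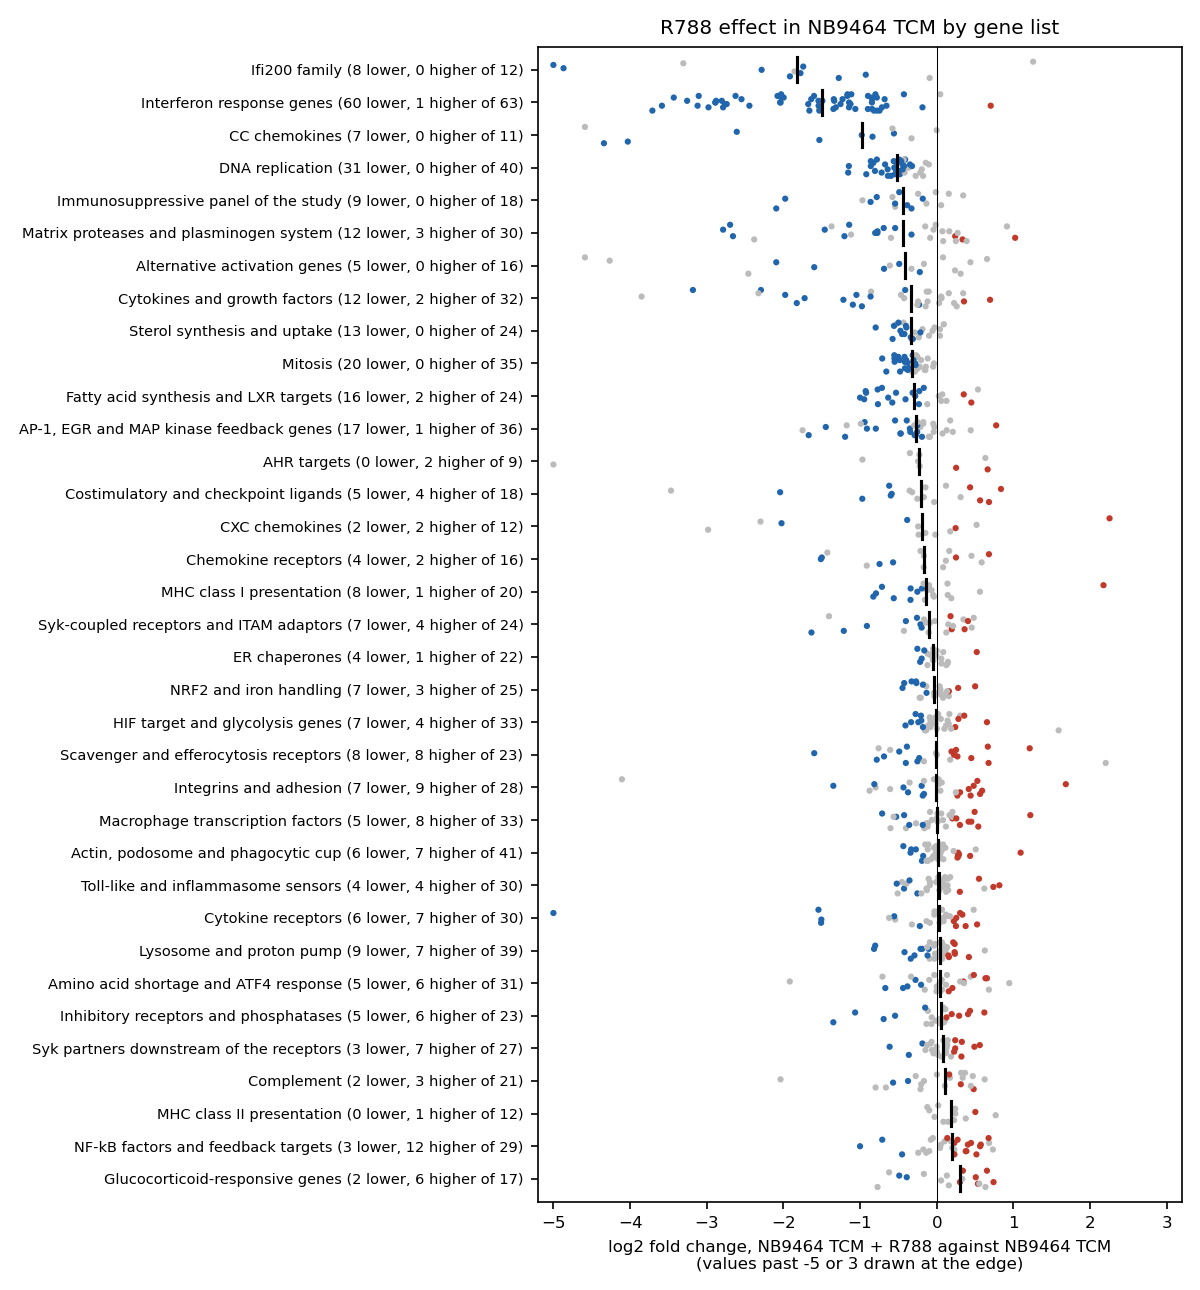
Each point is a tested member of a gene list, placed on the x axis by its log2 fold change with R788 in NB9464 TCM (values past -5 drawn at the edge), and the black bar is the list's median. Blue points were called lower, red called higher and grey not called. Among the lists drawn, which leave out the cell type markers, the Ifi200 family (median -1.82) and the interferon-response genes (-1.49) lie farthest to the left.

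The largest rises by the naming rule were of thinly expressed genes. Cib2, a calcium-binding protein, had 73.7 and 120 normalized counts against 345 and 359 (1.86 ± 0.31, adjusted p = 5.5e-08), and Abhd3, a phospholipase of the α/β-hydrolase family, 64.1 and 70.6 against 217 and 212 (1.67 ± 0.35, adjusted p = 4.5e-05). Adgre4, an adhesion receptor of the F4/80 family, had 63.1 and 59.5 against 257 and 137 (1.68 ± 0.35). The other rises named, Ston1, Lad1, Slc4a3, Nrxn2, Gm13183, 1700003M07Rik and I830127L07Rik, were between 1.42 and 1.81, and edgeR did not call Gm13183 and I830127L07Rik. Nes (nestin), an intermediate filament protein outside the lists, fell from 234 and 193 to 9.95 and 15.6 (-4.08 ± 0.41).

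The R788 effect was then set beside that in libraries this contrast did not use. R788 moved 12.6% of genes in NBT3L TCM and 26.6% without TCM. Of the 1417 genes lower in NB9464 TCM, 815 (57.5%) were called lower and 4 higher in NBT3L TCM, where 7.24% of all genes were called lower, and 844 (59.6%) were called lower and 113 higher without TCM, where 15.0% of all were. Of the 942 higher genes, 478 (50.7%) and 462 (49.0%) were called higher in those media, where 5.33% and 11.6% of all genes were, and 6 and 73 were called lower. The difference of the R788 effect was itself called for 115 of all genes (0.706%) against NBT3L TCM, where edgeR called 21 genes, and for 2032 (12.5%) against no TCM. Of the interferon genes, 61 of 63 were called lower in each of the other media, with medians of -1.62 in NBT3L TCM and -1.29 without TCM. Without library SJ8, the R788 effect without TCM gave 3644 calls in place of 4327, and the difference of the R788 effect, NB9464 TCM minus no TCM, gave 1815 in place of 2032. Among the interferon genes the difference was called for 2 of 63 against NBT3L TCM and 25 of 63 against no TCM.

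A group of genes fell more in NB9464 TCM than in both other media. Ccl7 fell by 4.03 here, by 3.05 in NBT3L TCM and by 3.66 without TCM, and the difference was -0.98 ± 0.082 (adjusted p = 5.1e-29) against NBT3L TCM and -0.37 ± 0.086 (adjusted p = 3.4e-04) against none. Spp1 fell by 3.18, 2.34 and 2.59, with differences of -0.84 ± 0.074 and -0.59 ± 0.072. Lilrb4a fell by 1.06 and 0.45 and was 0.16 without TCM. Mrc1 fell by 1.60 and 1.08 and was at 0.12 without TCM (difference -1.72 ± 0.11), and its difference of -0.52 to NBT3L TCM was not called by edgeR. Stab1 fell by 0.69 and 0.31 but rose by 0.71 without TCM (difference -1.40 ± 0.076). Il1rn was the reverse, with falls of 1.83 here, 2.49 in NBT3L TCM and 2.51 without TCM, though edgeR did not call its difference of 0.66 to NBT3L TCM. Fkbp5 rose by 0.54 here and fell by 0.50 and 0.57 in the other media. In all, 51 genes called here differed from both other media in the same direction, and for 16 of these edgeR called both differences too. Both differences hold the same libraries SJ3, SJ4, SJ9 and SJ10, and the genes were picked by their call here. Agreement in direction is thus partly built in, and the count is no test of effects particular to NB9464 TCM.

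Other effects had 1 direction in both TCM and were smaller or opposite without TCM. The log2 fold change of Ccr1 was -1.50 in NB9464 TCM, -1.70 in NBT3L TCM and -0.15 without TCM (difference to no TCM -1.35 ± 0.19, adjusted p = 1.3e-10). In the same order Trem1 was at -1.21, -1.23 and -0.25, Cd86 at -0.97, -1.14 and 0.70, and Cxcl2 at -0.38, -0.43 and 0.66. Id3 was at 1.22, 0.82 and 0.10, and Blnk at 0.56, 0.21 and -0.78. In the other direction, Fcgr1 fell less here (-0.91) and in NBT3L TCM (-1.13) than without TCM (-2.23), as did Nos2 (-0.71, -0.99 and -1.87) and Ccl4 (-1.53, -1.70 and -2.49). For these 9 genes the difference to no TCM was called and that to NBT3L TCM was not.

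**Figure D5:**
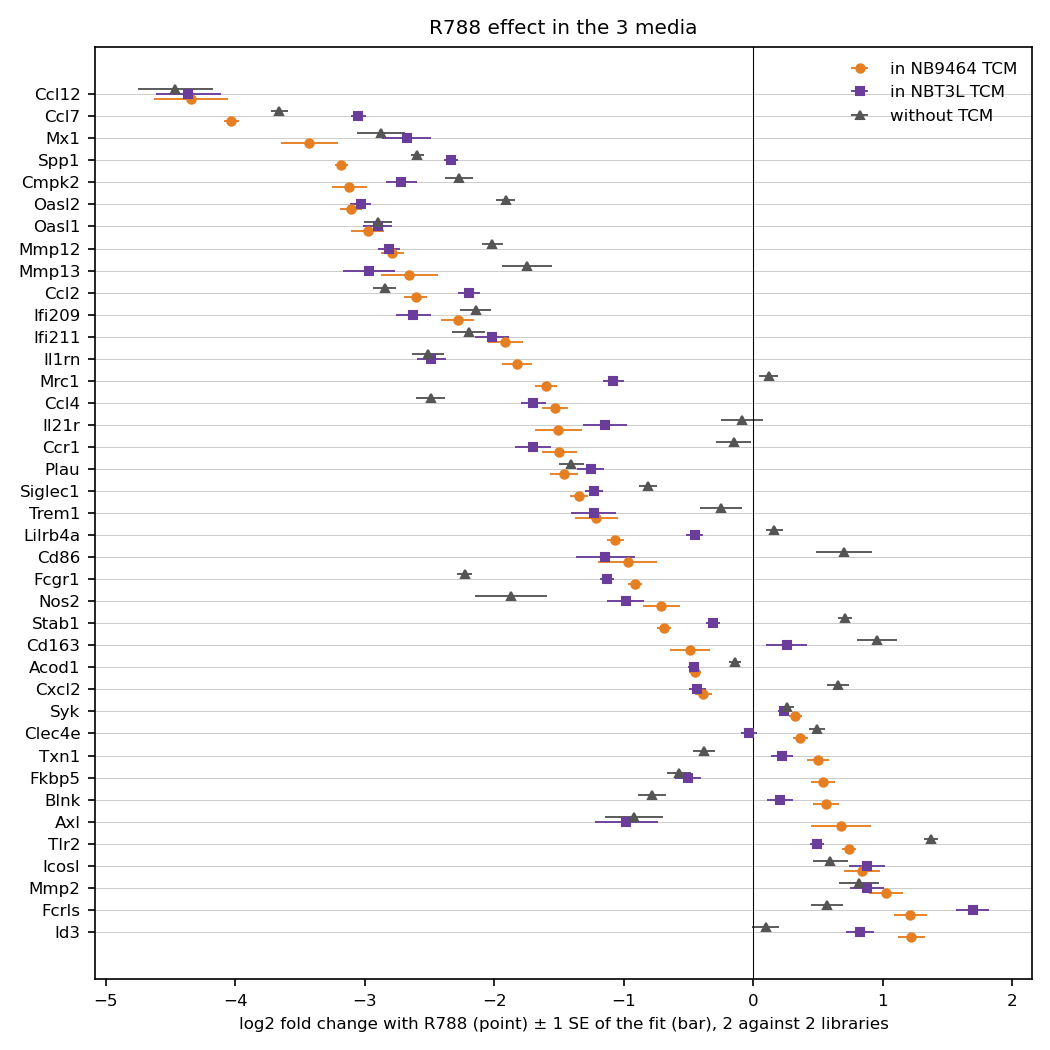
Log2 fold change with R788 for 39 named genes in NB9464 TCM (orange), NBT3L TCM (purple) and without TCM (grey), with bars of 1 SE of the DESeq2 fit. Stab1 is at -0.69, -0.31 and 0.71 and Ccl12 at -4.34, -4.36 and -4.46 in these media.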

How the data were processed

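Raw read counts per gene of 12 libraries were deposited by the authors in 1 table. The submitters' processing notes name STAR 2.6.1d, Salmon 1.4.0, SAMtools 1.9, Picard 2.26 and MultiQC 1.11, and the methods name mm10. Strand use and the treatment of reads that match several genes are not given in the sources used here. The labels give paired reads and 2 libraries a group, the methods single reads in triplicate, and the labels were followed. Between 65.2% and 67.9% of counts from 1 to 40 were even numbers, so counts divided by 2 were tried. Of 214 named genes called, 212 kept the call with counts divided by 2, and Stat3 and Nfe2l2 lost it. Why even counts were in excess was not tested. Totals ran from 44977847 to 56449685 counts, and intervals cover the spread between libraries only.

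Genes that reached 10 counts in 2 or more libraries were fitted with DESeq2 1.42.0 (R 4.3.3) on all 12 libraries with group as the term, a Wald test and Benjamini-Hochberg adjustment, and called at an adjusted p under 0.05. edgeR 4.0.16 (quasi-likelihood) was the alternative, and the fit was tested on simulated data. Named genes were Syk, the 10 largest rises and falls whose mean normalized count was 100 or higher and whose groups did not overlap, the immunosuppressive panel, and up to 4 rises and 4 falls per list with a mean of 20 or higher. The TPM values were computed here from the deposited counts and lengths. The genes described and the lists were chosen with earlier results of these data known. Promoter windows came from RefSeq (GRCm38.p6), matched by symbol. Some genes are not reported here.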

Additional observations from a re-analysis of the deposited data

Results flagged for a closer look

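The R788 effect of a named gene is given here where its difference between media passed both DESeq2 and edgeR (adjusted p under 0.05), except genes at or under 3 counts in every library of a compared group, which were left out. Each value is the log2 fold change with R788 in NB9464 TCM minus that in the other medium. Against NBT3L TCM the difference was -0.98 for Ccl7, -0.84 for Spp1, -0.61 for Lilrb4a, -0.38 for Stab1 and 1.04 for Fkbp5. Against no TCM, genes that fell in NB9464 TCM and were higher or less lowered without TCM had differences of -2.46 for Serpinb2, -1.72 for Mrc1, -1.67 for Cd86, -1.44 for Cd163, -1.40 for Stab1, -1.35 for Ccr1, -1.23 for Lilrb4a, -1.19 for Oasl2 and -1.17 for Spry2. In the same set the values were -1.09 for Il1b, -1.04 for Cxcl2, -0.96 for Trem1, -0.91 for Mmp13, -0.84 for Cmpk2, -0.77 for Mmp12, -0.62 for Vav3, -0.59 for Spp1 and -0.57 for Nlrp3. In the same set the values were -0.53 for Siglec1, -0.49 for Msr1, -0.37 for Ccl7, -0.31 for Acod1 and -0.29 for Lcp2. Genes that rose less in NB9464 TCM than without TCM had differences of -1.88 for Adgre4, -1.49 for Apoe, -0.71 for Nfkbie, -0.70 for Ifi27, -0.64 for Tlr2, -0.50 for Ahrr, -0.48 for Fgr and -0.42 for Fpr2. Genes that fell less in NB9464 TCM than without TCM had differences of 0.57 for Myc, 0.69 for Il1rn, 0.72 for Fads2, 0.96 for Ccl4, 1.16 for Nos2 and 1.32 for Fcgr1. Genes that rose in NB9464 TCM and rose less or had a negative log2 fold change without TCM had differences of 0.28 for Adgre1, 0.41 for Ptpn6, 0.61 for Pik3r5, 0.65 for Fcrls, 0.96 for Cd5l, 1.109 for Fkbp5, 1.13 for Id3, 1.25 for Ccrl2 and 1.34 for Blnk. In the same set the values were 1.60 for Axl, 1.96 for Bcl2a1d and 2.51 for I830127L07Rik. Of genes whose R788 effect was not called in NB9464 TCM, the difference to no TCM was -1.23 for Igf1r, -0.73 for Card9, 0.64 for Fcer1g, 0.80 for Fcgr4, 0.93 for Cd14, 1.49 for Il10 and 2.15 for Ccl5.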

How the results depend on the processing

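No paired analysis was possible because the library numbers SJ1 to SJ12 are all different and no label ties libraries of different groups. The R788 effect in NB9464 TCM gave 2359 calls. It gave 343 when a 2-fold change was also required, and 1419 to 1788 when 1 of the 4 libraries was left out. With a 2-fold change required, the R788 effect gave 806 calls without TCM and 314 in NBT3L TCM, and the difference between media gave 383 calls against no TCM and 22 against NBT3L TCM. The R788 effect in NBT3L TCM gave 2046 calls, 3678 from only the libraries compared and 1172 to 1264 with 1 library left out. With 1 library left out, the R788 effect without TCM gave 3070 to 4678 calls and the difference of the R788 effect, NB9464 TCM minus no TCM, gave 1341 to 2967. The difference of the R788 effect, NB9464 TCM minus NBT3L TCM, had 115 calls, 21 by edgeR, 271 from only the libraries compared, 234 without SJ7 and SJ8, and 46 to 75 with 1 library left out. The cause was not tested. Of 214 named genes called, edgeR kept the call of 204, TMM scaling 213, and leaving out 1 library 177 to 182. Not every named call lost by leaving out 1 library is marked above. The Plod3 log2 fold change with R788 in NB9464 TCM, not called, was -0.012 and ranged from -0.044 without SJ3 to 0.019 without SJ4. With 2 libraries a group, small changes of genes with low counts could not be resolved.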
